A study of Mus musculus with 2 samples.

Results

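The granule-high cells of retinoic acid-treated PLZF/RARA leukemia were the cells in which at least 10% of the captured RNA came from 6 neutrophil granule genes, Camp, Ngp, Ltf, Lcn2, S100a8 and S100a9. They were 1552 of the 6248 cells kept in the retinoic acid library, or 24.8% (95% exact binomial interval 23.8% to 25.9%). The other 4696 kept cells of that library served as the comparison. The limit was set on the measured counts of the 6 genes, so the levels of these genes describe how the cells were chosen and are not a finding. With the same limit, 25 of 5146 kept cells of the vehicle library, 0.486% (0.315% to 0.716%), were granule-high. The whole series held 13202 barcodes, of which 11394 were kept.

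Both libraries held mouse late promyelocytes expressing PLZF/RARA, an oncogenic fusion of the zinc finger protein PLZF (encoded by Zbtb16) with the retinoic acid receptor alpha. The cells came from leukemic bone marrow and were sorted as Cd45.2+, C-Kit+, Gr1+, Cd34- and FcγR+. The mice had been injected intraperitoneally for 7 days with 0.8 to 1 mg of retinoic acid, or with the vehicle, corn oil holding 10% DMSO. A treatment cohort held 3 to 5 mice, and the labels do not say how many of them contributed to each library or whether their cells were pooled. The labels give neither the age of the mice nor the promoter that drives the fusion.

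Neutrophils make their granules in sequence. Promyelocytes fill primary (azurophil) granules with serine proteases such as elastase, proteinase 3 and cathepsin G. Myelocytes and metamyelocytes then make secondary (specific) granules with the antimicrobial peptide encoded by Camp, lactoferrin (Ltf), lipocalin 2 (Lcn2) and neutrophilic granule protein (Ngp), and the factor C/EBP epsilon (Cebpe) is required for that stage. S100a8 and S100a9 encode the 2 chains of calprotectin, an abundant cytosolic calcium-binding protein of neutrophils. Tertiary granules, the oxidative burst machinery and chemokine receptors follow as the cells stop dividing. Retinoic acid is known for driving some promyelocytic leukemia cells along this course. Whether it did so in these PLZF/RARA cells was not tested, because there was a single library per treatment.

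Camp, Ngp and Ltf lie near each other on mouse chromosome 9 (GRCm38, GENCODE M21 gene limits). Camp occupies chr9:109847379-109849617 on the minus strand, Ngp chr9:110419747-110423012 on the plus strand and Ltf chr9:111019271-111042767 on the plus strand. S100a8 (chr3:90668978-90670035, plus strand) and S100a9 (chr3:90692632-90695721, minus strand) are neighbours on chromosome 3, and Lcn2 is at chr2:32384633-32388252 on the minus strand. All 6 are protein-coding genes. In the 250 bases before their RefSeq start (GRCm38.p6), 4 of the 6 genes held a C/EBP-type sequence, TTGCNNAA on either strand, compared with 9.56% of 32851 promoter windows of that length. Ngp held it 2 times. RefSeq starts are used for these windows and, except for S100a9, differ from the GENCODE gene limits given above. The window of Ngp reaches 110419807 and so ends inside the GENCODE gene, and that of Lcn2 (chr2:32387740-32387989) lies wholly inside its gene. Those of Camp, Ltf and S100a8 also end inside their genes, and that of S100a9 lies outside its gene. The second Ngp match, 11 bases before the RefSeq start, and the Lcn2 match are therefore within the GENCODE limits of these genes. A PU.1-type sequence, GAGGAA on either strand, was in 3 of the 6 windows and in 23.2% of all windows. A match describes letters and is not evidence of binding. The 30 bases around 1 match in each of the 4 genes are shown 5′ to 3′ on the gene's strand, with the C/EBP-type letters in capitals, because these are the genes that define the cells:
Ngp, chr9:110419659-110419688, match starting 138 bases before the RefSeq start: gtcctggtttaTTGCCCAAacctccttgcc
Ltf, chr9:111019206-111019235, match starting 75 bases before the RefSeq start: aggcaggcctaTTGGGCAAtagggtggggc
Lcn2, chr2:32387937-32387966, match starting 216 bases before the RefSeq start: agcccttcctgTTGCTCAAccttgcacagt
S100a9, chr3:90695939-90695968, match starting 236 bases before the RefSeq start: ggtaggctgtcTTGCTTAAgatttgggcgg

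The data were UMI counts, where a UMI (unique molecular identifier) marks 1 captured RNA molecule. A barcode counted as a kept cell when it held 5000 or more UMIs and 500 or more genes, with 0.1 to 10% of its UMIs from mitochondrial genes. This left out 1168 of 7416 barcodes of the retinoic acid library, 757 for depth and 411 for a mitochondrial share under 0.1%. Among the barcodes left out, 342 also had a granule share of at least 10%, so the count of granule-high cells depends on these limits. The libraries shared 11 barcodes, 2 of them granule-high. Granule-high cells held a median of 10880.5 UMIs and 2673 genes, and the other cells 16913 UMIs and 3831.5 genes. With each cell drawn down to 5000 UMIs the medians were 1642 and 1876 genes. With 3000 UMIs drawn outside the 6 genes they were 1357 and 1352 genes. The draw to 5000 UMIs includes the 6 genes, which took 20.2% of UMIs in granule-high and 2.81% in other cells. Fewer of the 5000 UMIs were thus left for the remaining genes in granule-high cells. This lowers the detection of those genes there, while CPM leaves the 6 genes out. The median mitochondrial share was 1.08% and 1.35%. Granule-high cells gave 18468714 UMIs in sum and the other cells 84503674. Because both sets come from 1 library and the cells were picked on the same counts, no test was made. Intervals are 95% intervals for counting error, and they do not cover differences between mice or sorts.

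The granule share had no gap at the limit. There were 136 cells with 9 to 10% and 110 cells with 10 to 11% of UMIs in the 6 genes, with medians of 14614 and 14168.5 UMIs per cell. Within the granule-high cells the median share was 19.8%, the middle 50% of cells lay between 13.6% and 29.2%, and the highest cell reached 54.8%. The other cells had a median share of 2.12%. Kept vehicle cells had a median of 0.0320%. The histogram of the share shows a continuous slope through the limit in the retinoic acid library.

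**Figure D1:**
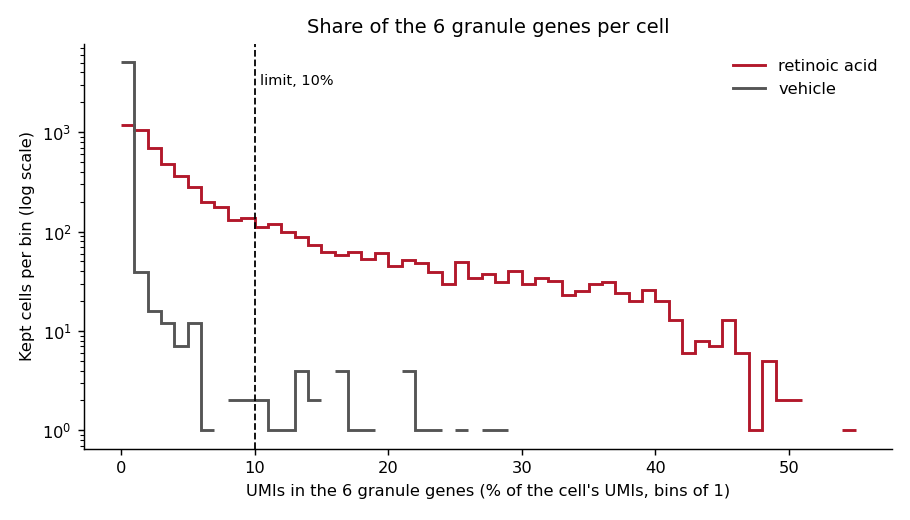
Number of kept cells (log scale) by the percent of each cell's UMIs in the 6 granule genes, in bins of 1 percent, for the retinoic acid and vehicle libraries, with bins of no cells left blank. The dashed line is the limit of 10%, above which lie 1552 retinoic acid and 25 vehicle cells.

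The 6 genes together took 20.2% of all UMIs of granule-high cells, 2.81% in the other cells and 0.150% in the vehicle library. Per cell, the share of Camp ran from 0.227% to 15.5% of UMIs with a median of 6.05%. Ngp ran from 0.538% to 14.4% with a median of 4.60%. S100a9 had a median of 4.12% and reached 23.7%, and S100a8 had a median of 3.77% and reached 20.3%, while each was at 0 in at least 1 granule-high cell. Lcn2 ran from 0.0199% to 4.65% with a median of 0.388%. Ltf was at 0 in the median granule-high cell and reached 1.61%. Camp, Ngp and Lcn2 thus had UMIs in every granule-high cell, and Ltf in a minority. All are genes of the rule, so this describes how the cells were chosen. Presence of Camp, Ngp or Lcn2 did not set these cells apart. With the depth drawn down, Camp and Ngp were each found in 97.7% of other cells, Lcn2 in 86.0% and Ltf in 0.703%.

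The mix of the 6 genes differed along the share, which is their own sum, so the values describe the classes and support nothing further. Camp gave 35.5% of their UMIs in cells with a share of 10 to 15% and 20.2% in cells at 30% and more. S100a9 went from 20.9% to 28.7% and S100a8 from 17.2% to 25.5% between the same classes. Lcn2 went from 1.94% to 4.74%, and Ltf from 0.0689% to 0.637%. As a percent of all UMIs, Camp was 7.17% in the class of 20 to 30% and 7.35% at 30% and more, and S100a9 was 5.71% and 10.5%. Relative to the UMIs outside the 6 genes, Camp was higher in the last class too, at 115694 compared with 94960 CPM (the percent of those UMIs times 10000). In the 25 granule-high vehicle cells Ngp gave 35.8% of the 6 genes' UMIs and Camp 23.7%. In the retinoic acid granule-high cells these were 22.7% and 29.1%.

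**Figure D2:**
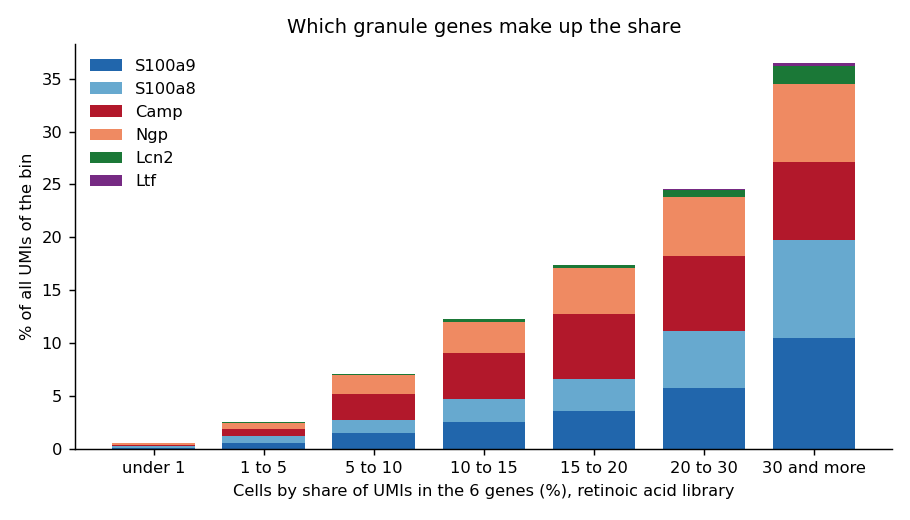
Percent of all UMIs taken by each of the 6 granule genes (stacked bars) in cells of the retinoic acid library grouped by their summed share, in classes of 1187, 2587, 922, 491, 297, 405 and 359 cells from left to right. Camp takes 7.17% and 7.35% in the last 2 classes, and S100a9 5.71% and 10.5%.

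Lactoferrin, a gene of the rule, gave few of the UMIs that chose the cells, 9250 in granule-high and 397 in the other cells. With 5000 UMIs per cell, 428 of 1552 granule-high cells (27.6%, 25.4% to 29.9%) held an Ltf UMI, compared with 33 of 4696 other cells (0.703%). In cells with a granule share under 1% it was 4 of 1187 (0.337%). These values do not separate free RNA in the droplets from low expression in the cells. Without drawing down the depth these were 32.5%, 1.90% and 1.85%, at median depths of 10880.5, 16913 and 18015 UMIs.

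For the remaining genes, levels are given as CPM on that same scale, which keeps the large granule share from lowering every other gene. With all UMIs as the total, each log2 ratio is lower by 0.28. Among the 5688 genes that reached 20 CPM in granule-high or other cells, 278 were at least 2-fold higher in granule-high cells (4.89% of genes tested) and 79 at least 2-fold lower (1.39%). The median log2 ratio was -0.02, with 47.75% of genes above 0, and the middle 50% of genes lay between -0.28 and 0.26. With all UMIs as the total the balance turned, to 144 higher and 261 lower. Of the 278 higher genes, 138 reached 20 CPM in granule-high cells alone, so the limit favoured them. Among the 5281 genes with 20 CPM in the other cells, 140 were at least 2-fold higher (2.65%) and 79 at least 2-fold lower (1.50%). At least 4-fold, 70 of the 5688 genes were higher and 7 lower. The counts for gene lists below are over members with 20 CPM in the other cells.

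Secondary granule genes that were not used to choose the cells were also high. Of a list of 10, 6 had 20 CPM in the other cells, and 6 of these 6 were at least 2-fold higher. Another 2, Chil3 and Itgb2l, reached that level in granule-high cells alone, and the median log2 ratio over the 10 was 2.83. Olfm4 (olfactomedin 4, present in the specific granules of some neutrophils) was at 2998 CPM compared with 366.9 CPM, a log2 ratio of 3.03 (3.01 to 3.05). Ceacam10, a carcinoembryonic antigen family member, was at 794.4 compared with 55.1 CPM (log2 ratio 3.85). Itgb2l, an integrin beta chain, was at 114.1 compared with 7.15 CPM (log2 ratio 3.996). Orm1 (orosomucoid), Cd177 (a neutrophil surface protein), Pglyrp1 (which binds peptidoglycan) and Hp (haptoglobin) had log2 ratios of 2.63, 2.16, 1.20 and 1.02. The higher level of secondary granule genes was thus not limited to the 6 genes of the rule.

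Olfm4 and Chil3 were unevenly spread. Olfm4 UMIs were found in 55.9% of granule-high cells at 5000 UMIs per cell, with a median of 5 and a maximum of 107 UMIs, while Pglyrp1 was found in 99.7%. Chil3, a chitinase-like protein of neutrophils, averaged 20.9 CPM but was found in 1.55% of granule-high cells. Mmp8, the neutrophil collagenase, had 45 UMIs in all granule-high cells and 13 in the others.

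Tertiary granule genes were scarce in the other cells, where 1 member, Qsox1, had 20 CPM. Another 4 reached that level in granule-high cells alone and are given as values, and the median log2 ratio over the 6 members with at least 10 UMIs was 3.44. Itgam, the alpha chain of the Mac-1 integrin, was at 85.8 compared with 7.93 CPM (log2 ratio 3.44, 3.30 to 3.58). Fcnb, a ficolin, was at 67.3 compared with 11.1 CPM (2.60). Mmp9, gelatinase B, was at 20.7 compared with 0.377 CPM (5.76), and 69 granule-high cells (4.45%) held a UMI of it at 5000 UMIs per cell. Adam8, a membrane protease, was at 37.3 compared with 3.41 CPM (3.45), and at 41.3 CPM in the vehicle library. Qsox1, a sulfhydryl oxidase, was at 58.4 compared with 41.8 CPM (0.48).

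Of late neutrophil genes, 13 had 20 CPM in the other cells, of which 6 were at least 2-fold higher and 1 at least 2-fold lower. Another 6 reached that level in granule-high cells alone, and the list median was 1.62 over 24 members with at least 10 UMIs. Retnlg, a resistin-like secreted protein of neutrophils, was at 1197 compared with 25.5 CPM (log2 ratio 5.55, 5.49 to 5.62). Ifitm6, an interferon-induced transmembrane family member, was at 776.5 compared with 10.5 CPM (6.20). Ly6g, part of the Gr1 antigen of the sort, was at 1446 compared with 54.3 CPM (4.74). Anxa1 (annexin A1, an anti-inflammatory phospholipid-binding protein) had a log2 ratio of 4.83, and Ccl6, a chemokine, of 4.33. These ratios hold within the retinoic acid library. In the vehicle library Anxa1 was at 438.8 CPM, higher than the 285.5 CPM of granule-high cells. Ccl6 was at 113.3 CPM there, compared with 187.2 CPM, while Retnlg, Ifitm6 and Ly6g were at 2.35, 84.7 and 30.5 CPM. Cxcr2, the receptor that draws neutrophils out of the marrow, was at 27.8 compared with 2.73 CPM (3.35), and at 16.8 CPM in the vehicle library. Fpr1, a formyl peptide receptor, had 13 UMIs in granule-high cells and 0 in the others. With 3 counts put in place of the 0, Fpr1 was 24.2-fold higher. The interval for counting error of its log2 ratio began lower, at 4.09 compared with 4.59 for that fold. Ifitm1, at 697.7 compared with 2020 CPM (log2 ratio -1.53), and Clec4d, a C-type lectin receptor gene, at 63.2 compared with 112.6 CPM (-0.83), were the 2 of these 24 members that were lower.

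Stefins, inhibitors of cysteine proteases that lie in a cluster of near-identical copies on chromosome 16, had a list median of 3.08 over 10 members. In the other cells 2 members had 20 CPM, Cstdc5 and Csta2, both at least 2-fold higher in granule-high cells, and another 6 reached that level in granule-high cells alone. Stfa2 was at 149.6 compared with 2.46 CPM (log2 ratio 5.92), and Stfa3 at 142.0 compared with 8.34 CPM (4.09). Cstdc5 was at 3016 compared with 424.5 CPM (2.83). Reads of such copies can be split or lost in counting, so the values of single stefins are uncertain. At 5000 UMIs per cell, Stfa2 was found in 11.3% of granule-high cells with up to 52 UMIs in a cell, while Cstdc5 was found in 91.2%.

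The NADPH oxidase produces superoxide from a membrane pair, gp91-phox (Cybb) and p22-phox (Cyba), and cytosolic subunits. All 6 genes of the list were higher, compared with 47.75% of all genes tested. Of the 5 with 20 CPM in the other cells, 3 were higher by at least 2-fold. Cybb reached 20 CPM in granule-high cells alone. Cybb was at 89.7 CPM (84.9 to 94.7) compared with 1.10 CPM (0.881 to 1.35), a log2 ratio of 6.35 (6.05 to 6.68) and the highest among genes of at least 50 CPM. Ncf1 (p47-phox) had a log2 ratio of 2.31, Ncf4 (p40-phox) of 1.56 and Rac2 of 1.17, while Cyba was at 0.71. A Cybb UMI was found in 264 granule-high cells (17.0%), 19 other cells (0.405%) and 2 cells with a granule share under 1% (0.169%) at 5000 UMIs per cell. Without drawing down the depth the shares were 22.2%, 0.916% and 0.590%. The catalytic subunit was therefore detected in a minority, whereas Cyba was detected in 99.9% of granule-high and 99.7% of other cells.

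Among the remaining genes with the largest positive ratios, Clec4a2, a C-type lectin receptor, had a log2 ratio of 4.76, AA467197 of 5.06, Inhba (the activin beta A chain) of 3.65 and Lsp1, an actin-binding leukocyte protein, of 3.47. In the other cells these genes were at 4.58, 4.09, 7.07 and 4.55 CPM. They reached the 50 CPM required of named genes in granule-high cells alone, so that limit favoured them. Among surface genes, C5ar1, the complement C5a receptor, was at 169.6 compared with 17.5 CPM (3.28), and Itgb2, the beta 2 integrin chain, at 277.1 compared with 38.6 CPM (2.84). Csf3r, the G-CSF receptor, was at 8.69 compared with 6.32 CPM (0.46). Actin and motility genes had a list median of 0.69, with 4 of 16 at least 2-fold higher, Capg (1.95), Lcp1 (1.09), Actb (1.03) and Vasp (1.00).

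Primary granule genes were lower. Of 6 members at 20 CPM, 2 were at least 2-fold lower and the list median was -0.96. Ctsg (cathepsin G) was at 1663 compared with 7253 CPM (log2 ratio -2.12, -2.14 to -2.11), and Elane (neutrophil elastase) at 4273 compared with 8853 CPM (-1.05). Ms4a3, a membrane protein of granulocyte progenitors, Prss57 and Prtn3 (proteinase 3) had log2 ratios of -0.96, -0.74 and -0.73. Cd63, a tetraspanin of the azurophil granule membrane, was at 0.31. At 5000 UMIs per cell, the median granule-high cell held 2 Ctsg UMIs and the median other cell 33. An Elane UMI was found in 76.2% of granule-high and 98.5% of other cells. These draws include the 6 genes, which left fewer UMIs for Ctsg and Elane in granule-high cells. Mpo, encoding myeloperoxidase, had 0 UMIs in granule-high cells and 55 in the others, of which 53 came from 1 cell, so the sums do not describe the other cells at large. In the vehicle library Mpo, Ctsg and Prss57 were at 314.2, 6480 and 377.5 CPM, higher than in granule-high cells. Elane, Prtn3, Ms4a3 and Cd63 were lower there than in granule-high cells, at 63.0, 246.7, 856.1 and 1908.5 CPM.

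The genes with the most negative ratios included enzymes of serine synthesis, Phgdh (40.8 compared with 179.2 CPM, log2 ratio -2.13) and Psat1 (28.2 compared with 74.1 CPM, -1.39). Srgn, the proteoglycan serglycin that binds granule proteases, was at 540.4 compared with 2185 CPM (-2.02). Dmkn had a ratio of -2.39, the lowest among genes of at least 50 CPM in either set. Fkbp11, a peptidyl-prolyl isomerase of the endoplasmic reticulum, had a ratio of -1.70 and Cbfa2t3, a transcriptional corepressor, of -1.80. Ly6k was at -1.78, Rangrf at -1.83, Nt5dc2 at -1.68, Cenpv at -1.67, Bzw2 at -1.53 and Frat2 at -1.40. Mcpt8, a basophil protease gene, was at 22.2 compared with 75.7 CPM (-1.77). Ribosome biogenesis genes were lower in 18 of 18 members, 2 of 16 by at least 2-fold, with a list median of -0.81. Npm1, nucleophosmin, was at 796.5 compared with 1632 CPM (-1.03). Ribosomal protein genes were lower in 78 of 82 members by a median of -0.23, within the middle 50% of all genes tested (-0.28 to 0.26). Of all genes tested, 47.75% had a log2 ratio above 0.

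**Figure D3:**
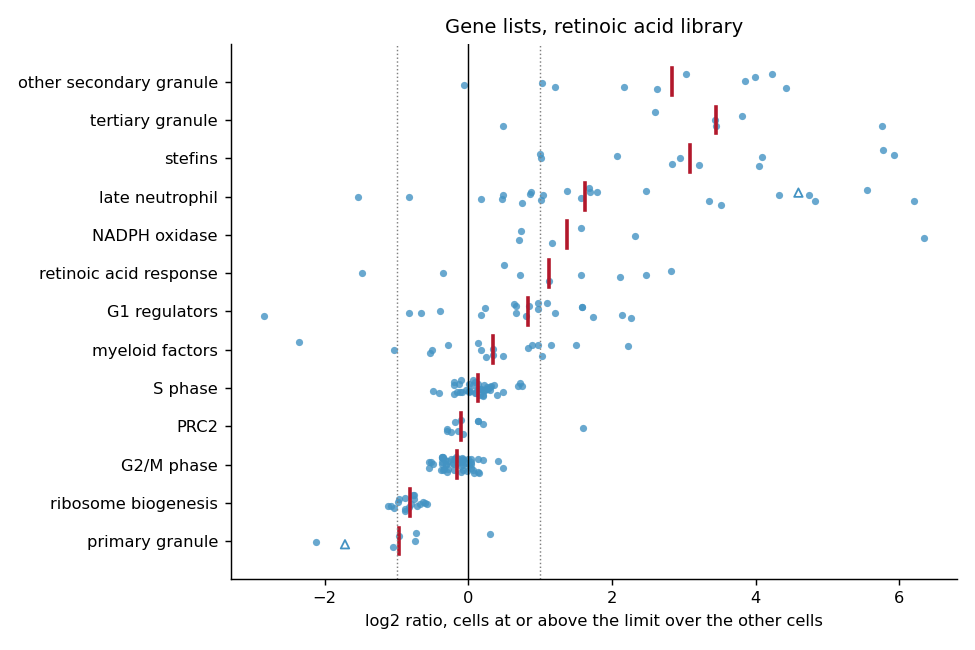
Log2 ratio of granule-high over other cells for each gene with at least 10 UMIs in 13 lists (points), with the list median as a red bar, 0 as a solid line and 2-fold as dotted lines. Open triangles are Fpr1 and Mpo, which had 0 UMIs in 1 set and are drawn at the bound that 3 counts allow. Granule, stefin and late neutrophil lists lie to the right and the ribosome biogenesis and primary granule lists to the left.

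Transcription factors of the granulocyte lineage were mostly modestly higher, with 3 of 15 members with 20 CPM in the other cells at least 2-fold higher and 0 at least 2-fold lower, and a list median of 0.34. Cebpe was at 832.7 compared with 294.2 CPM (log2 ratio 1.501, 1.47 to 1.53). Mxd1, which opposes Myc at shared sites, was at 92.4 compared with 19.8 CPM (2.22), while Myc was at 89.9 CPM and lower than in the other cells (-0.53). Id1 and Id2, inhibitors of helix-loop-helix factors, had ratios of 1.14 and 1.03. Spi1 (PU.1), Cebpd and Cebpb had ratios of 0.96, 0.89 and 0.83, and Gfi1 and Cebpa of 0.13 and 0.25. Myb, a progenitor factor, was at -0.51.

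Genes of the retinoic acid response were scarce. Of 16 listed genes, 9 had at least 10 UMIs over both sets, with a median log2 ratio of 1.12, 7 higher and 2 lower. The median was 1.61 in cells of 5000 to 10000 UMIs, 0.58 at 10000 to 20000 and 0.51 above 20000. Dhrs3, a retinal reductase, was the 1 member to reach 20 CPM, in granule-high cells alone, with 67.4 compared with 9.58 CPM (2.82, 2.68 to 2.95). The retinoic acid-degrading enzyme Cyp26a1 had 99 UMIs compared with 128 in the larger set of other cells (log2 ratio of CPM 2.11), and Stra8 had 130 compared with 131 (2.47). In the vehicle library Stra8, Rara and Rxra were at 13.1, 10.9 and 17.9 CPM, higher than the 8.82, 3.60 and 9.57 CPM of granule-high cells. Dhrs3, Rarg and Cyp26a1 were lower there, at 1.86, 9.27 and 0.0724 CPM compared with 67.4, 14.25 and 6.72 CPM. Rai14 had a log2 ratio of -0.35 between granule-high and other cells. Zbtb16 had 10 UMIs in granule-high cells and 163 in the others (-1.48). The counts cannot tell the fusion transcript from the normal gene.

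PRC2 places the repressive methyl marks on histone H3 lysine 27, and Ezh2 is its catalytic subunit. Ezh2 was at 91.0 CPM compared with 103.4 CPM, a log2 ratio of -0.18 (-0.27 to -0.10), and it differed by depth, at -0.70 (-0.95 to -0.46) in cells of 5000 to 10000 UMIs, 0.06 (-0.05 to 0.16) at 10000 to 20000 and -0.32 (-0.53 to -0.11) above 20000. Of 8 PRC2 members at 20 CPM, 0 were 2-fold higher and 0 were 2-fold lower. Suz12, Eed and Jarid2 had ratios of -0.07, 0.14 and -0.25, all within 2-fold. Within phase calls, Ezh2 was at 39.0 compared with 57.1 CPM in G1, 131.6 compared with 120.8 CPM in S and 107.2 compared with 107.8 CPM in G2/M.

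Along the granule share, 8 of the 24 late neutrophil genes with at least 10 UMIs were at least 10-fold higher at 30% and more than at 10 to 15%, 14 were higher by less than that, and 2 were lower. Retnlg was at 231.5 CPM in cells with a share of 10 to 15%, 268.6 at 15 to 20%, 1161 at 20 to 30% and 5924 at 30% and more. Ly6g was at 370.2, 571.2, 1620 and 6098 CPM in these 4 classes, and Cybb at 21.9, 26.9, 84.6 and 422.1 CPM. Mmp9 was at 3.45, 4.17, 3.03 and 134.0 CPM and Anxa1 at 52.0, 54.2, 314.6 and 1376 CPM. Other genes differed less between the classes. Cstdc5 was at 2260, 3127, 3832 and 3936 CPM, and Orm1 at 203.8, 305.5, 458.7 and 473.7 CPM. Olfm4 was at 1911, 2247, 3872 and 6299 CPM and Cebpe at 592.2, 769.7, 1014 and 1417 CPM. Malat1, a nuclear RNA, was at 3198, 4120, 5563 and 8880 CPM.

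Primary granule genes declined over the same classes. Elane was at 6319, 4426, 2432 and 429.9 CPM, and Ctsg at 2749, 1352, 724.7 and 184.0 CPM. Below the limit Elane had been at 7567 CPM at a share under 1%, 9642 at 1 to 5% and 8321 at 5 to 10%, so its highest level was in cells with a small granule share. Summed over the class, cells at 10 to 15% thus had much Elane RNA, and less Retnlg and Cybb than cells at 30% and more. Their Camp RNA was also high, but Camp is a gene of the rule. Whether the same cells held both Camp and Elane was not tested. Gfi1 was at 190.3 CPM at 10 to 15% and 91.8 CPM at 30% and more. Padi4, the enzyme that citrullinates histones in neutrophils, was at 101.6 and 401.0 CPM.

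**Figure D4:**
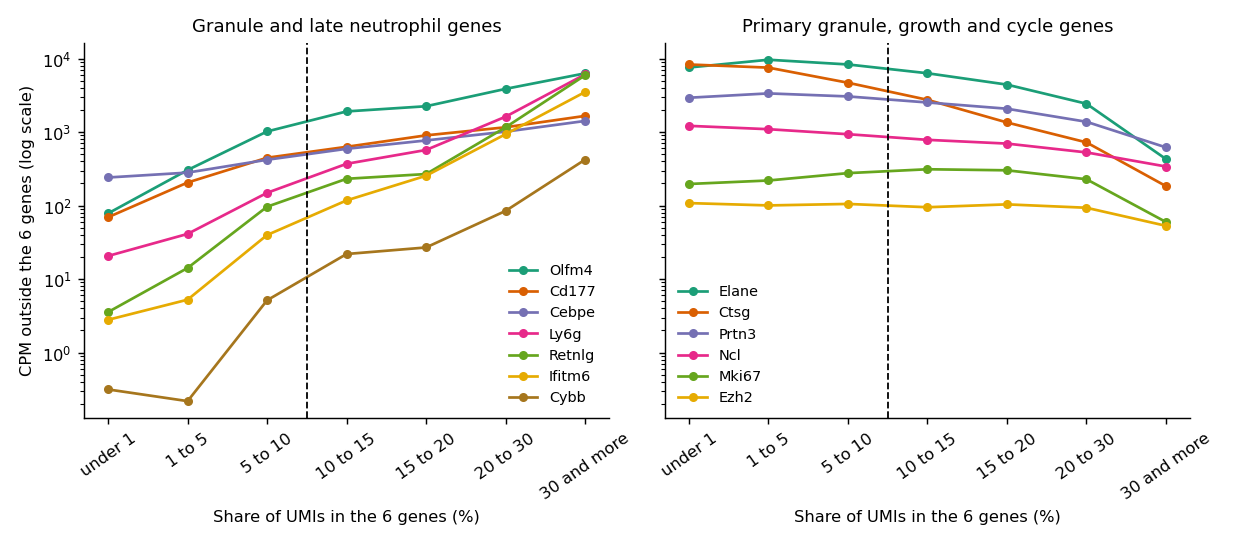
CPM outside the 6 granule genes (log scale) of 13 genes in 7 classes of granule share in the retinoic acid library, with the limit of 10% as a dashed line. Retnlg, Ly6g, Ifitm6 and Cybb are highest at 30% and more, where Elane, Ctsg, Ncl, Mki67 and Ezh2 are lowest.

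Detection of late genes differed between granule-high cells with and without an Ltf or an Mki67 UMI. At 5000 UMIs per cell, Cybb was found in 180 of 428 cells with an Ltf UMI (42.1%) and 84 of 1124 without one (7.47%). Retnlg was found in 82.2% and 44.6%, and Ly6g in 97.0% and 66.9%. Ltf is a gene of the rule, at 96.2 CPM at a share of 10 to 15% and 3657 CPM at 30% and more. Cybb, Retnlg and Ly6g also rose along the share. A split by Ltf thus also sorts the cells by granule share, and its values support nothing further. Cells with a UMI of Mki67, a marker of dividing cells, held Ltf in 12.5% (70 of 558) and cells without it in 36.02% (358 of 994). Cybb was found in 6.81% and 22.7% of these. Mki67 was lower at a share of 30% and more than at 10 to 15%. A split by Mki67 thus also sorts the cells by granule share, and its values support nothing further either. Among genes of at least 50 CPM, the ratio of variance to mean over granule-high cells was highest for Retnlg (35.8), S100a6 (24.8), Olfm4 (24.5), Elane (23.9), Malat1 (20.9), Stfa3 (20.6), Ly6g (17.9) and Stfa2 (15.9), followed by Ifitm1 (14.1) and Ifitm6 (13.8).

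A smaller share of granule-high than of other cells was called in G2/M, and a larger share in G1. Phase calls from S and G2/M gene scores at 5000 UMIs per cell put 45.0% of granule-high cells in G1, 24.6% in S and 30.3% in G2/M. The other cells were at 19.8%, 24.6% and 55.6%, and vehicle cells at 52.5%, 9.60% and 37.9%. The G1 difference was 25.3 percentage points (Newcombe interval 22.6 to 28.0), the G2/M difference -25.3 (-27.9 to -22.6) and the S difference 0.018 (-2.41 to 2.53). G1 calls were 108 of 491 cells (22%) at a share of 10 to 15%, 27.9% at 15 to 20%, 49.1% at 20 to 30% and 86.1% at 30% and more. G2/M calls were 49.3%, 39.1%, 24.2% and 4.18%.

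Depth moved with these calls. Among cells of 5000 to 10000 UMIs, 71.9% of 638 granule-high and 40.5% of 506 other cells were in G1. In cells of 10000 to 20000 UMIs this was 27.6% of 809 and 24.8% of 2696, a difference of 2.75 points (-0.653 to 6.31), and above 20000 UMIs 16.2% of 105 and 3.61% of 1494. The class of 5000 to 10000 UMIs held 265 of the 359 cells with a granule share of 30% and more. The part of depth in the G1 difference was not tested beyond these classes. The main gene ratios were present in each depth class. Cybb had log2 ratios of 7.37, 6.13 and 5.31 in increasing depth, Retnlg of 7.00, 5.08 and 4.22, and Ctsg of -2.92, -2.12 and -1.22.

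**Figure D5:**
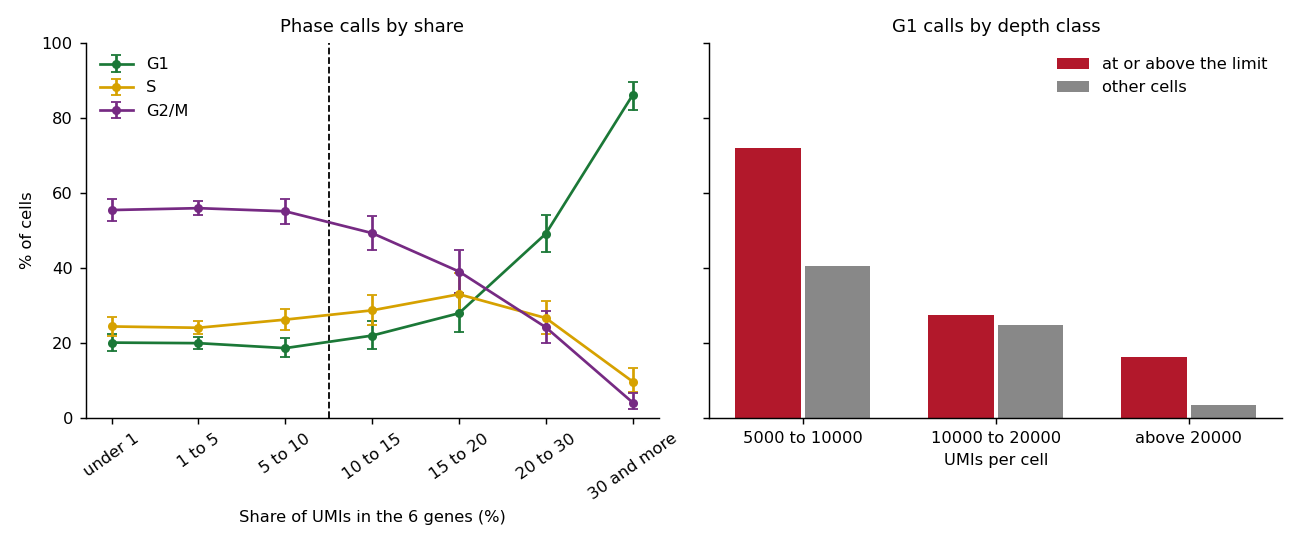
Left, percent of cells called in G1, S and G2/M by granule share in the retinoic acid library, with exact 95% binomial intervals and the limit of 10% as a dashed line. Right, percent called in G1 among granule-high and other cells in 3 classes of UMIs per cell, where the pairs are 71.9% and 40.5%, 27.6% and 24.8%, and 16.2% and 3.61%.

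Summed levels of cell cycle genes are on another scale than the calls and weigh deep cells more. The S phase list had a median log2 ratio of 0.13 and the G2/M list of -0.16, with 0 of 36 and 0 of 47 members reaching 2-fold in either direction. Both medians changed sign under some settings: the S list was at -0.15 with all UMIs as the total, and the G2/M list at 0.36 in cells of 10000 to 20000 UMIs. With equal weight for every cell the medians were 0.05 for the S list and -0.28 for the G2/M list. Summed over its genes, the G2/M list was at 9325 CPM at a share of 10 to 15% and 2676 CPM at 30% and more. Mki67 was at 258.0 compared with 223.2 CPM (0.21) in the sums, yet was found in 35.95% of granule-high and 48.6% of other cells at 5000 UMIs per cell. Those 5000 UMIs include the 6 genes, which the CPM leave out, so fewer were left for Mki67 in granule-high cells. The log2 ratio of Mki67 was -0.58, 0.73 and 0.24 in the 3 classes of increasing depth. By granule share it was at 312.1 CPM at a share of 10 to 15% and 59.8 CPM at 30% and more. Among G1 regulators, 3 of 10 members with 20 CPM in the other cells were at least 2-fold higher, and another 6 reached that level in granule-high cells alone. Ccnd3 (cyclin D3) was at 475.0 compared with 158.9 CPM (1.58), and the kinase inhibitors Cdkn2d, Cdkn2c and Cdkn1a had ratios of 2.13, 1.58 and 1.09. The kinases Cdk6 and Cdk4 were at -0.83 and -0.66.

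Genes of the sort gate were measured in the granule-high cells. Kit was at 20.7 compared with 17.3 CPM (log2 ratio 0.26, 0.07 to 0.44), with no sign of a lower level in granule-high cells. Ptprc, encoding Cd45, was at 181.6 compared with 95.8 CPM (0.92), Fcgr3 at 132.3 compared with 55.8 CPM (1.24), and Fcgr2b at 122.1 compared with 88.8 CPM (0.46). Cd34 had 0 UMIs compared with 12. Ly6c2, whose product is also bound by Gr1 antibodies and which has a near-identical copy, was at 5134 compared with 4484 CPM (0.20). The gate selects on these proteins, so the share of granule-high cells holds for sorted cells and not for the marrow.

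Markers of other cell types were at or near 0 in granule-high cells, with named exceptions. The summed level of 10 T and NK cell genes was 0.136 CPM (2 UMIs, with Cd3d at 0), of 8 dendritic cell genes 1.22 CPM and of 10 erythroid genes 1.29 CPM. The 9 monocyte genes summed to 4.95 CPM, compared with 5.00 in the other cells. Eosinophil genes summed to 9.30 CPM compared with 34.2 CPM, and basophil and mast cell genes to 24.2 compared with 80.0 CPM, with Mcpt8 giving most of the latter. Vcam1, on the macrophage list, was at 393.5 compared with 296.5 CPM and was found in 63.3% of granule-high and 65.7% of other cells, while the macrophage genes Mrc1 and Axl had 0 UMIs in granule-high cells. Ighm was at 46.1 compared with 45.1 CPM, and Pecam1 at 80.4 compared with 78.5 CPM.

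Doublets were not removed, because the caller marked 2 granule-high cells and 1 other cell. Granule-high cells above the 95th percentile of the other cells' UMIs numbered 14 (0.902%). Among cells with a share of 30% and more, 75% had a doublet score of 0.0331 or less, and the same point was 0.102 for the other cells. It was 0.0970 at a share of 10 to 15% and 0.118 at 5 to 10%. The median score at 10 to 15% was 0.0689, the same as in the other cells. Whether the classes near the limit hold mixed doublets was not tested.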

How the data were processed

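The authors deposited raw UMI counts per gene and barcode for 2 libraries of 10x Genomics 3′ v2 chemistry, and the file headers name Cell Ranger 4.0.0 as their source. The submitters' processing notes name mm10 and GRCm38.p4, and how cells were separated from empty droplets is not given in the sources used here. Each group held 1 library, so values are compared without a test. Here, counts were summed over granule-high and over other cells, as CPM outside the 6 rule genes, and log2 ratios were taken with 0.5 counts added. Ratios carry exact conditional binomial intervals, sums exact Poisson intervals, shares Clopper-Pearson intervals, and a 0 allows 3 counts. Phases were called with scanpy 1.11.5 after drawing each cell to 5000 UMIs. Scrublet scored doublets. Named genes were the 15 highest and 15 lowest ratios of at least 50 CPM, the 10 most variable among granule-high cells, and list members, with some below 20 CPM named after their values were seen. The scripts were tested on simulated data. The members and the gene lists were chosen with earlier results of these data known. Of 32285 gene identifiers, 32235 matched GENCODE M21. Promoter sequences come from RefSeq (GRCm38.p6). Alternatives varied the limits, scaling, depth, doublets and phase. Not every list member is reported here by name.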

Additional observations from a re-analysis of the deposited data

How the results depend on the processing

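Granule-high cells numbered 2474, 1061 and 764 with limits of 5%, 15% and 20%, 973 with the share taken from Camp, Ngp, Ltf and Lcn2, and 914 with at least 10000 UMIs. They ranged from 1497 to 1729 under the other alternatives. Genes at least 2-fold higher and lower numbered 156 and 24 at a limit of 5%, 407 and 252 at 15%, 557 and 450 at 20%, 144 and 261 with all UMIs as the total, 468 and 210 at 5 CPM, 107 and 22 at 100 CPM, 2128 and 1144 with no limit on level, and 140 and 79 with 20 CPM required in the other cells. They numbered 172 and 44 in cells of 10000 to 20000 UMIs, 472 and 314 in G1 cells, 450 and 310 in cells of 5000 to 10000 UMIs, 167 and 30 above 20000 UMIs, and 321 and 131 with equal weight for every cell. With all UMIs as the total, lower genes thus outnumbered higher ones. The cause of these shifts was not tested. The G1 difference was 15.2, 35.7 and 46.1 points at limits of 5%, 15% and 20%, and 31.4, 2.75 and 12.6 points in the 3 classes of increasing depth. The G2/M difference was -16.2, -33.5 and -39.4 points at those limits, -20.9, -7.01 and -7.61 in those classes, and -22.1 without drawing down the depth. The S difference was -6.70 points at 20%, -10.5, 4.26 and -4.97 by depth, and -3.07 without drawing down. With 3000 UMIs outside the 6 genes, the differences were 23.4, -0.172 and -23.2 points for G1, S and G2/M. The classes of 5000 to 10000 and above 20000 UMIs, the level required in the other cells and the drawing outside the 6 genes were chosen after seeing the data. The Ezh2 ratio ran from -0.70 to 0.06. The primary granule median ran from -1.91 to -0.41, and that of the other secondary granule genes from 2.11 to 3.15. No paired analysis was possible because there was a single library per treatment. Depth limits genes under 20 CPM, and 1 library per group leaves differences between mice unmeasured.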
